A study of Rattus norvegicus with 9 samples.

Results

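The 10 genes described here encode the NF-kappaB transcription factor subunits (Nfkb1, Nfkb2, Rel, Rela and Relb) and the IkB proteins that bind them (Nfkbia, Nfkbib, Nfkbie, Nfkbid and Nfkbiz). They were taken by symbol from a table of counts with 28343 genes, and all 10 were found. The libraries are RNA-seq of retinal microglia, the resident macrophages of the retina, sorted by their surface CD11b from papain-digested whole retinas of Dark Agouti rats, an inbred strain. The diabetic group (4 libraries, numbered 1, 2, 4 and 5) came from rats given streptozotocin, which destroys the insulin-producing cells of the pancreas, at 55 mg/kg when 8 to 10 weeks old and after 12 hours without food. The control group (5 libraries, numbered 1, 3, 4, 5 and 6) received citrate buffer alone, at the same age and after the same fast. Both groups were taken at 4 weeks after the injection. A blood glucose above 30 mmol/l was answered with 2 units of insulin in the diabetic rats. The protocol gives 5 control and 4 diabetic rats, as many as there are libraries, without saying that each library is 1 rat, so p-values measure the spread between these libraries. CD11b is also carried by blood and border myeloid cells.

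NF-kappaB proteins are dimers that wait in the cytoplasm in the grip of IkB proteins. Signals from cytokine and Toll-like receptors activate the IKK kinases, which mark IkB for degradation, and the freed dimers enter the nucleus and switch on genes of inflammation and cell survival. The same dimers induce genes of their own family, Nfkbia above all, whose protein then shuts the response down. In microglia the pathway is known for driving cytokine and chemokine genes.

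The start sites of these genes are shown first because the family is known to act on its own promoters. RefSeq sequences on the rat build GRCr8 were at hand for 9 of the 10 genes, each from 250 bases before to 50 bases after a start site. The kappaB consensus was searched on both strands. It was present in 6 of these 9 genes, 3 of 4 subunit genes and 3 of 5 IkB genes, and in 4.51% of the 27457 genes with such a window. Each match is printed 5′ to 3′ on the gene's strand with the consensus in capitals and the flanking bases in lower case, 30 bases in all.
Nfkb1 (chr2:226805440-226805469, minus strand): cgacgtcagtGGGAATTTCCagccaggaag
Nfkb2 (chr1:255108344-255108373, plus strand): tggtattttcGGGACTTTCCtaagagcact
Rel (chr14:101922001-101922030, minus strand): cgtaggcagcGGGAAATCCCCccccgttcc
Nfkbia (chr6:78597084-78597113, minus strand): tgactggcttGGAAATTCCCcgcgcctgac
Nfkbie (chr9:22948017-22948046, minus strand): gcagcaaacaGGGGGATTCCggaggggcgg
The Nfkbia letters match the consensus on the opposite strand, and those of Rel hold overlapping matches. The match began 82 bases before the start in Rel, 31 in Nfkbia, 20 in Nfkb2 and 164 in Nfkbie, and at base 4 after it in Nfkb1. Nfkbiz, among the genes with the widest spread below, is shown with all 250 bases before its start (chr11:58251471-58251720, plus strand), where the match began 13 bases before the start.
Nfkbiz: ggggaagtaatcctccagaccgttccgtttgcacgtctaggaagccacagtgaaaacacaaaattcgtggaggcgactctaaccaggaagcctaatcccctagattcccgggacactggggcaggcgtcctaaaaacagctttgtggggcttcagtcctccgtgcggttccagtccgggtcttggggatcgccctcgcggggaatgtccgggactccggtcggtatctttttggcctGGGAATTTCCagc
Rela, Nfkbib and the 4 start sites of Nfkbid held no match in these windows. A match is a description of letters, and no binding was measured here.

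Total counts ran from 6228756 to 11332823 per library. Controls 4 and 6 stood apart from the other libraries in the family's own values and in a list of immediate-early and stress genes below. The results of the family are given with and without them. The microglia list of 12 markers held 2.23% to 3.12% of control counts and 2.67% to 2.84% of diabetic counts, and its lowest shares were in control 6 (2.23%) and control 4 (2.49%). Of its genes Csf1r was the highest, at 9516 to 12099 CPM, and Olfml3 the lowest, at 1.22 to 5.03 CPM. The lists of other cells held less: 1.06% to 1.76% for Muller glia and astrocytes, 0.0274% to 0.0390% for neutrophils, 0.0165% to 0.0216% for monocytes, 0.00328% to 0.0183% for vascular cells and 0.000346% to 0.00107% for lymphocytes. Border macrophage markers held 0.0348% to 0.0789% of control and 0.0686% to 0.150% of diabetic counts, and 7 of 7 tested were above 0 in the comparison with 0 past the adjusted threshold. Photoreceptor markers held 0.0241% to 0.130% of control and 0.0364% to 0.193% of diabetic counts, with 8 of 8 above 0 and 0 past that threshold. Inner retinal neuron markers held 0.00548% to 0.0135% and 0.00858% to 0.0279%, with 7 of 7 above 0 and again 0 past it. The part of these 3 lists in the results was not tested. Of the other lists, 4 of 12 microglia, 2 of 8 Muller glia and astrocyte and 1 of 7 vascular genes tested were above 0. So were 3 of 4 neutrophil, 2 of 4 monocyte and 1 of 1 lymphocyte genes. Of all tested genes 49.7% were below 0. Ccr2, Mpo, Cd209b, Cd3g, Ms4a1 and Nkg7 had no count in any library. These sorted cells are a bulk sample, in which fewer cells with a transcript and less of it per cell cannot be told apart.

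In CPM scaled with TMM factors, every one of the 10 genes was highest in control 6 and next highest in control 4. That order was seen in 10.7% of the 11748 genes tested. The factors were smallest in control 6 (0.839) and control 4 (0.927), against 1.01 to 1.07 in the other libraries, and a smaller factor gives a higher CPM. Before that scaling, diabetic 2 had more Nfkbia counts than control 6 (17999 against 16826) from a smaller total (9159560 against 9246211). For Nfkbia, the order with controls 6 and 4 on top thus rested on the factors. Diabetic 5 was the highest diabetic library for 9 of 10 (28.0% of all genes), and all diabetic libraries lay within the control range for 8 of 10 (23.9%). No gene of the family passed the test between diabetic and control microglia. The spread within the control group was wider than within the diabetic group for all 10 (60.5% of all genes). Values below are CPM, counts scaled to a common library size with TMM factors, given in the order of controls 1, 3, 4, 5 and 6 and then diabetic 1, 2, 4 and 5. Log2 fold changes are diabetic minus control with a standard error (SE), from edgeR's quasi-likelihood test, with p-values adjusted over all tested genes by Benjamini-Hochberg and a threshold of 0.05.

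**Figure D1:**
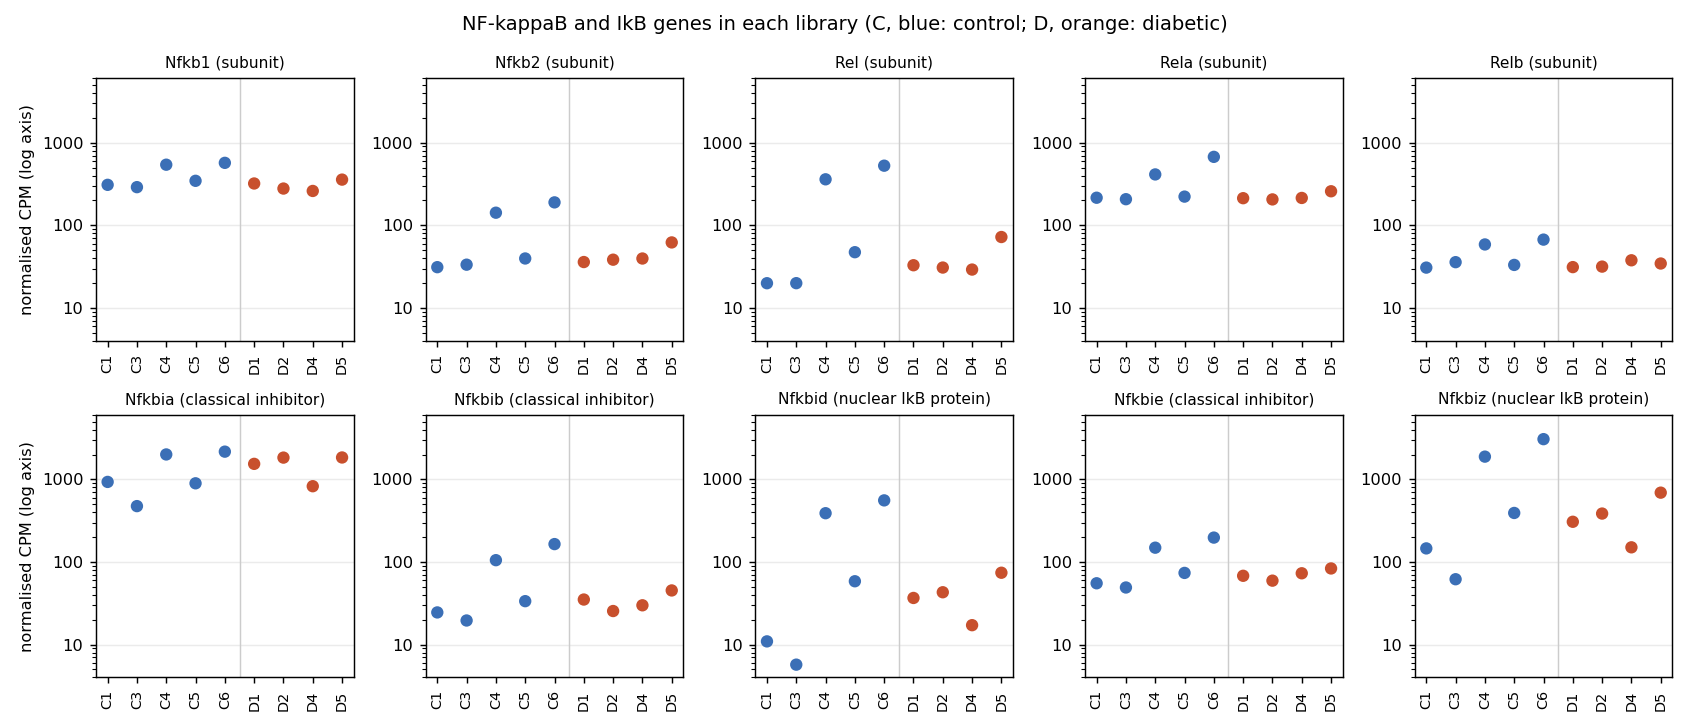
Normalised CPM of each NF-kappaB and IkB gene (log axis, the same in every panel) in the 5 control (blue) and 4 diabetic (orange) libraries; each point is 1 library. Controls 4 and 6 are the highest points in every panel, and Nfkbid reaches from 5.72 CPM in control 3 to 557 CPM in control 6.

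Among the subunits, Rel, which encodes c-Rel, a subunit with a transactivation domain typical of blood and immune cells, spread the most. It was at 19.9, 19.9, 361, 47.3 and 527 CPM in the controls and at 32.9, 30.8, 29.1 and 72.2 CPM in the diabetic group. Controls 4 and 6 lay far above the rest, and all diabetic libraries lay within the control range. The log2 fold change was -2.23 (SE 1.35), with an edgeR adjusted p of 0.337 and a 95% normal interval of -4.87 to 0.40. Its highest control exceeded its lowest 26.5-fold, against 2.48-fold within the diabetic group and a median of 1.58-fold over all genes in the controls.

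Rela encodes the transactivating partner of the common NF-kappaB dimer. Its level was 216, 207, 413, 223 and 674 CPM in controls and 213, 206, 214 and 258 CPM in the diabetic group. Apart from controls 4 and 6, the 7 libraries lay close together, from 206 to 258 CPM, and the lowest of all was diabetic 2. The log2 fold change was -0.64 (SE 0.42, edgeR adjusted p = 0.384).

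Nfkb1 encodes the precursor of the subunit that pairs with Rela and has no transactivation domain. It was at 309, 289.8, 542, 346 and 570.5 CPM in controls and 321, 279, 261 and 358 CPM in the diabetic group. It had the narrowest control spread of the 10 genes, 1.97-fold from lowest to highest, and 2 of 4 diabetic libraries fell below every control. Its log2 fold change of -0.43 (SE 0.24) had the smallest p of the family, 0.0762 unadjusted and 0.306 after edgeR's adjustment.

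Nfkb2 and Relb encode the pair of the non-canonical arm, which acts downstream of receptors such as CD40. Nfkb2 was at 31.1, 33.4, 142, 39.7 and 189.6 CPM in controls and 35.9, 38.4, 39.6 and 62.1 CPM in the diabetic group, at a fitted log2 fold change of -0.98 (SE 0.72, edgeR adjusted p = 0.432). Relb was at 30.8, 35.8, 58.7, 33.2 and 67.1 CPM in controls and 31.2, 31.6, 37.7 and 34.5 CPM in the diabetic group, at a fitted log2 fold change of -0.42 (SE 0.25, edgeR adjusted p = 0.340). Nfkb2 spread 6.09-fold within the controls. All 4 diabetic libraries lay within the control range for each of these genes.

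Nfkbia, the feedback inhibitor IkB-alpha, followed a pattern of its own. It was at 933, 475, 2005, 897 and 2168 CPM in controls and 1543, 1837, 827 and 1843 CPM in the diabetic group. Diabetic 1, 2 and 5 lay below controls 4 and 6 and above the other controls, while diabetic 4 lay between control 3 and control 5. It was the only member with a higher fitted value in the diabetic group, at a log2 fold change of 0.22 (SE 0.50, edgeR adjusted p = 0.827). Its count rested on 5196 to 18665 reads per library, the deepest of the family at its lowest library.

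The other cytoplasmic inhibitors had the control 4 and 6 pattern. Nfkbib (IkB-beta) was at 24.5, 19.6, 105, 33.6 and 165 CPM in controls and 35.1, 25.5, 29.9 and 45.3 CPM in the diabetic group. The log2 fold change of this gene was -1.03 (SE 0.77, edgeR adjusted p = 0.443). Nfkbie (IkB-epsilon) was at 55.3, 49.2, 149, 73.8 and 198 CPM in controls and 68.1, 59.5, 73.1 and 83.6 CPM in the diabetic group. The log2 fold change of this gene was -0.56 (SE 0.48, edgeR adjusted p = 0.502). For both genes all 4 diabetic libraries lay between control 1 and control 4.

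Nfkbid and Nfkbiz encode nuclear IkB proteins (IkB-NS and IkB-zeta), which bind NF-kappaB at the DNA and adjust subsets of its targets. Nfkbid was at 10.9, 5.72, 389.9, 58.5 and 557 CPM in controls and 36.7, 43.1, 17.2 and 74.2 CPM in the diabetic group. Nfkbiz was at 146, 61.9, 1887, 393 and 3073 CPM in controls and 307, 386, 151 and 691 CPM in the diabetic group. From the lowest to the highest control the span was 97.4-fold for Nfkbid and 49.6-fold for Nfkbiz, the widest of the family, and 4.31-fold and 4.59-fold within the diabetic group. The log2 fold changes were -2.25 (SE 1.55, edgeR adjusted p = 0.400) and -1.53 (SE 1.28, edgeR adjusted p = 0.492). In both genes controls 1 and 3 were below the lowest diabetic library and control 5 lay among the diabetic libraries.

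Of the 10 genes, 0 passed the adjusted threshold, where 0.0681% of all tested genes did. At an unadjusted p below 0.05, 0 of 10 passed by edgeR's quasi-likelihood test (18.9% of all genes), 3 by the DESeq2 Wald test (Nfkb1, Rel and Rela; 14.7% of all genes) and 0 by limma-voom (17.7%). After adjustment 0 of 10 passed by DESeq2 (4.88% of all genes) and 0 by limma-voom (0.034%). All 5 subunits, 2 of 3 cytoplasmic inhibitors and both nuclear IkB genes had fitted values below 0 (49.7% of all genes), with a median log2 fold change of -0.81 over the family against 0.0018 over all genes. The groups overlapped for all 10 genes, and 8.44% of all genes had groups that did not. None of these 10 genes in the authors' deposited table had an adjusted p below 0.05 (2.1% of its genes), and 2 had an unadjusted p below 0.05 (15.2% of its genes). Those were Rel (log2 fold change -2.0, adjusted to 0.116) and Nfkbid (-2.01, adjusted to 0.204), both by the authors' deposited table.

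With controls 4 and 6 left out, 3 control and 4 diabetic libraries remained. As controls 4 and 6 were the 2 highest libraries of all 10 members, leaving them out lowers each control mean. A rise of the fitted values was thus fixed in advance. In that fit 9 of 10 genes had fitted values above 0 (49.4% of all genes), with a median of 0.36 against -0.0039 over all genes. Nfkb1 was the only member below 0, at -0.06 (SE 0.12), and Nfkbia alone was above 0 both with and without those libraries. Nfkbia was at 768 ± 255 CPM (SD, n = 3) among those controls and 1512 ± 478 CPM (SD, n = 4) under diabetes, and 3 of 4 diabetic libraries exceeded all 3 controls. Its log2 fold change was 0.97 (SE 0.48), with an unadjusted edgeR p of 0.0419 and an adjusted p of 0.314, the only member under an unadjusted 0.05 (14.9% of all genes). Rel was then at 0.51 (SE 0.53), Nfkbid at 0.79 (SE 1.01) and Nfkbiz at 0.93 (SE 0.89). Rela (0.04, SE 0.10) and Relb (0.01, SE 0.12) were close to 0. The edgeR adjusted p-values for the family were 0.314 to 0.976 in that fit, and 0 of 10 members and 0.0% of all genes passed.

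**Figure D2:**
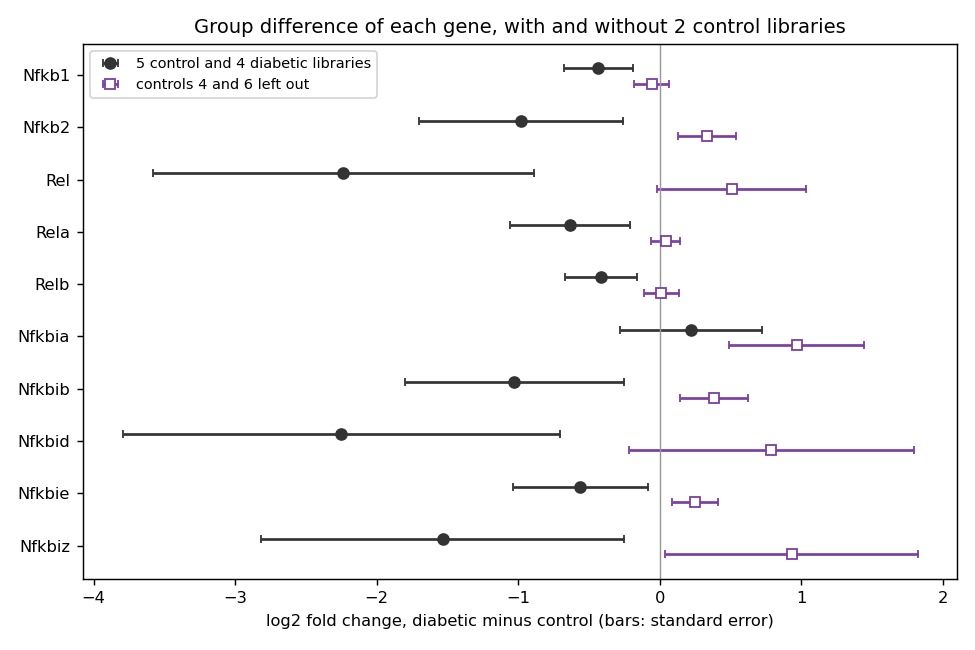
Log2 fold change of diabetic minus control for each gene, with bars for its standard error, from all 9 libraries (black circles) and with controls 4 and 6 left out (open purple squares). In the first fit 9 of 10 genes are below 0 and in the second 9 of 10 are above 0.

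The share of counts on another gene list was also highest in controls 4 and 6, and the part of that list in the results was not tested. A list of immediate-early and stress genes, known to be induced when tissue is dissociated, with 20 of its 21 genes in the table and no family member, held 0.965%, 0.428%, 2.22%, 0.798% and 2.67% of the counts in the controls and 1.73%, 1.89%, 1.26% and 1.99% in the diabetic libraries. Controls 4 and 6 had the highest shares, and every diabetic library lay above controls 1, 3 and 5. Diabetic 5, with the next highest share, ranked 3 from the top in CPM for 9 of 10 members. Control 1 or 3 was the lowest of all libraries for 8 of 10. Control 5, with a share of 0.798%, ranked 4 from the top in CPM of Nfkb1, Nfkb2, Rel, Rela, Nfkbid, Nfkbie and Nfkbiz. Its rank was 5 for Nfkbib, 6 for Relb and 7 for Nfkbia. With the log2 of this share as a covariate, 9 of 10 genes passed as lower in diabetic libraries (of all genes 13.4% passed, 8.45% as lower), with edgeR adjusted p-values from 0.00728 for Nfkb1 to 0.0481 for Nfkbid. Nfkbia was then at -0.11 (SE 0.13, edgeR adjusted p = 0.604). With controls 4 and 6 also left out, 0 of 10 passed, as did 0 of all genes. An unadjusted p below 0.05 by edgeR was seen in 0 of 10 (5.84% of all genes), with 8 of 10 below 0. Every diabetic share lay above every remaining control share. That fit could thus hardly tell group from share, and its lack of calls decides nothing. In it Nfkbid and Nfkbiz were at -2.17 (SE 1.95) and -1.85 (SE 1.40), against -2.31 (SE 0.84) and -1.74 (SE 0.62) with the covariate alone. Rel moved from -2.25 (SE 0.76) to -0.50 (SE 1.02).

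The counts of Nfkbia and Nfkbiz were set against each other within each library, as were those of Rel and Rela. These ratios were chosen after the values had been seen. Gene lengths cancel in comparisons of such a ratio between libraries. Nfkbia had 6.38, 7.67, 1.06, 2.29 and 0.706 counts per Nfkbiz count in controls 1, 3, 4, 5 and 6, and 5.03, 4.76, 5.49 and 2.67 in diabetic 1, 2, 4 and 5. The ratio was lowest in controls 4 and 6, where both genes were highest in CPM, and diabetic 5 and control 5 lay between those and the rest. Rel had 0.0923, 0.0963, 0.873, 0.212 and 0.782 counts per Rela count in the controls and 0.154, 0.150, 0.136 and 0.279 in the diabetic libraries, so Rel moved more than Rela in the same libraries.

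**Figure D3:**
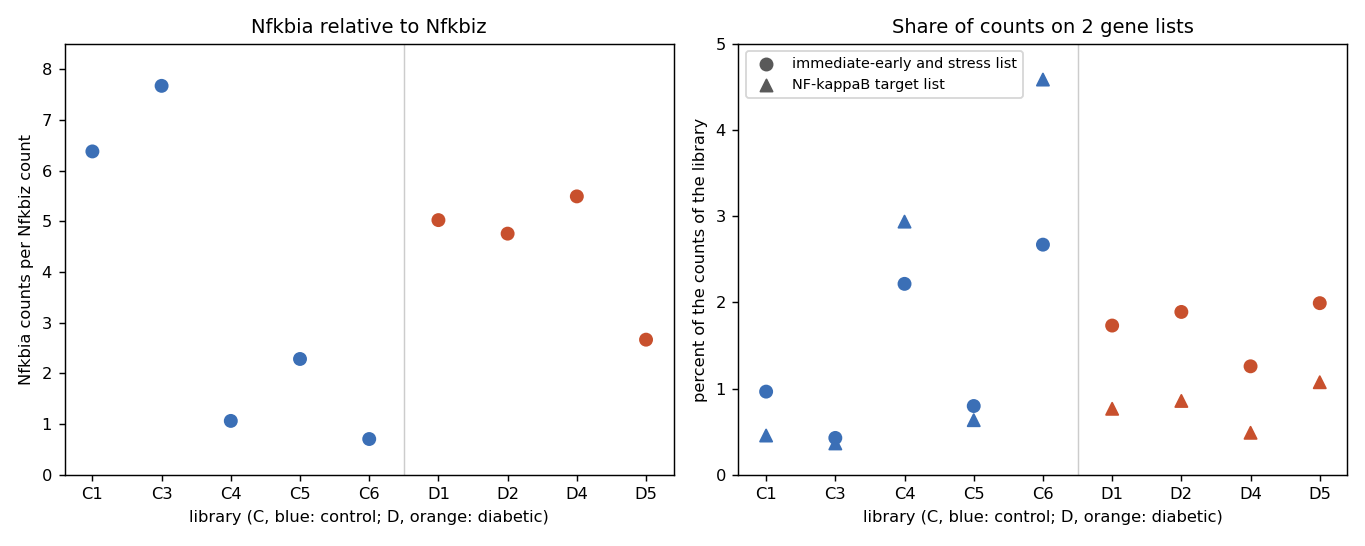
Left, counts of Nfkbia per count of Nfkbiz in each library. Right, percent of the counts of each library on the list of immediate-early and stress genes (circles) and on the list of known NF-kappaB targets (triangles); blue marks control and orange diabetic libraries. Controls 4 and 6 have the lowest ratios (1.06 and 0.706) and the highest shares.

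Members resembled each other over the 9 libraries. Pearson's r of log2 CPM, given as a description of libraries that share controls 4 and 6 as extremes, had a median of 0.94 over the 36 pairs without Nfkbia (lowest 0.76). Over the 9 pairs with Nfkbia the median was 0.68, the lowest value was 0.45 with Relb and the highest 0.87 with Nfkbiz. Without controls 4 and 6 the 45 pairs ran from -0.49 to 0.98 over 7 libraries, with a median of 0.68. The lowest of these were the pairs with Relb, from -0.49 with Nfkbia to 0.30 with Nfkb2. Nfkbia was then at 0.33 to 0.87 with the members other than Relb. The genes most like each member, of all those tested, were found by the same measure. Nfkbid was most like Nfkbiz (0.993, and 0.981 without controls 4 and 6), Csrnp1 and Tnfaip3. Nfkbiz was most like Dusp5 (0.997, and 0.992 without those libraries), Csrnp1 and Nfkbid. Rel was most like Cass4, Birc3 and Icam1 (0.994 to 0.995, and 0.946 to 0.956 without them). Nfkbib and Nfkbie were each other's nearest gene (0.994, and 0.949 without them), and the others nearest were Eif1 and Zc3h12a for Nfkbib and Zc3h12a and Clp1 for Nfkbie. Nfkb2 was most like Rilpl2, Rel and Mdm2, Nfkb1 like Rbm38, Zbtb2 and Gna13, Rela like Themis2 and Picalm, and Relb like Slc31a1, Rnf138 and Bcl2a1. Nfkbia was most like Snx15, Tenm3 and SNORA1 (0.953 to 0.974), with no member of the family among them.

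Levels can be compared between genes only per length, and the transcript assemblies gave an exon length for 5 members. On CPM per kilobase of that reference transcript, the median over 9 libraries was 986 for Nfkbia, 88.3 for Rela, 45.6 for Nfkbie, 24.0 for Nfkbib and 23.7 for Nfkbid. The order held in 9 of 9 libraries between each of the first 4 neighbours, whereas Nfkbib exceeded Nfkbid in 4 of 9, so the order of those last 2 is not set. The loci on Rnor6 were chromosome 6, 76267228 to 76270457, for Nfkbia, chromosome 1, 220992770 to 221003249, for Rela, chromosome 9, 17828408 to 17835240, for Nfkbie, chromosome 1, 86941074 to 86948845, for Nfkbib and chromosome 1, 88885937 to 88892615, for Nfkbid. In TPM, a level scaled to transcript length and library size, of the assembled gene, Nfkbia was at 272, 162, 715, 312 and 619.5 in the controls and 574, 442, 230.1 and 666 in the diabetic libraries. On that scale control 4 was the highest, diabetic 5 the next and control 6 after it. Nfkbib was at 9.57, 7.14, 31.5, 10.6 and 46.2 TPM in the controls and 14.4, 7.97 and 19.4 TPM in diabetic 1, 2 and 5. The assembled gene of Nfkbie held transcripts of the neighbouring Slc35b2 in control 1, and its reference transcript alone was at 7.39 to 27.3 TPM. Rela, found in 6 assemblies, was at 15.5, 40.9, 46.8 and 44.3 TPM in controls 3, 4, 5 and 6. It was at 17.5 and 16.6 TPM in diabetic 1 and 2, so control 5 was its highest library on that scale. Nfkbid, found in 3 assemblies, was at 95.1, 138 and 8.06 TPM in control 4, control 6 and diabetic 1. Its reference transcript alone was at 9.42, 6.27 and 4.84 TPM there.

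The rest of the pathway was read from 5 lists with 86 tested genes, of which 0 passed the adjusted threshold by edgeR. Medians are log2 fold changes, to be read against 0.0018 over all genes, and counts against the 49.7% of all genes below 0 and the 18.9% at an unadjusted p below 0.05. The IKK list holds the kinases that mark IkB and those above them. Of its 12 genes 11 were below 0, with a median of -0.11, and 2 of 12 had an unadjusted p below 0.05, both below 0, near the 18.9% of all genes. Ikbkb, the main catalytic kinase, was at 182 ± 5.17 CPM (SD, n = 5) among controls and 178 ± 15.3 CPM (SD, n = 4) under diabetes, with a log2 fold change of -0.03 (SE 0.09), a sign that turned without library factors (0.08). Chuk, its catalytic partner, was at 83.9 ± 19.8 and 62.2 ± 2.07 CPM (log2 fold change -0.43, edgeR adjusted p = 0.168). Ikbkg, the scaffold, was at 22.3 ± 2.76 and 20.9 ± 4.5 CPM. Map3k7 (TAK1), which activates IKK, was at 6.14 ± 0.967 and 4.14 ± 1.16 CPM (log2 fold change -0.55, edgeR adjusted p = 0.257), and Tab3, a TAK1 partner, at 7.27 ± 2.95 and 4.91 ± 0.543 CPM. Map3k8, a kinase held by the Nfkb1 precursor, was at 164, 120.4, 485, 233 and 699 CPM in controls and 197 to 249 CPM in the diabetic group. Map3k14 (NIK), the kinase of the non-canonical arm, was at 36.9 ± 12.0 and 34.2 ± 6.13 CPM, and Tbk1 and Ikbke, the IKK-related kinases, were at 71.6 ± 5.65 and 71.1 ± 7.11 CPM and at 2.76 ± 0.954 and 2.43 ± 1.52 CPM.

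Adaptors and ubiquitin ligases link receptors to IKK. Of 22 tested, 9 were above 0 and 13 below (median -0.11), and 2 of 22 had an unadjusted p below 0.05 (18.9% of all genes), Sharpin above 0 and Malt1 below. Traf1 was at 14.3, 9.71, 76.1, 19.6 and 184 CPM in controls and 12.3 to 18.8 CPM in the diabetic group. Birc3, an apoptosis inhibitor and ubiquitin ligase, was at 12.5, 10.2, 311, 37.4 and 471 CPM and at 14.1 to 40.3 CPM (log2 fold change -2.95, SE 1.58, edgeR adjusted p = 0.285; 0.12 without controls 4 and 6). Both were highest in control 6 and next highest in control 4, as Rel was. Myd88, the adaptor of Toll-like and IL-1 receptors, was at 151 ± 27.6 CPM (SD, n = 5) and 132 ± 9.90 CPM (SD, n = 4), and Irak4, its kinase, at 48.7 ± 3.86 and 45 ± 1.53 CPM. Traf6, the ligase below it, was at 41.4 ± 22.4 and 25.7 ± 7.71 CPM, and Traf3, which restrains Map3k14, at 25.1 ± 6.27 and 23.2 ± 5.57 CPM. Bcl10, a partner of Malt1, was at 101 ± 48.6 and 64.0 ± 6.90 CPM.

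The IkB degradation machinery had the lowest share of genes, among the 5 lists, with controls 4 and 6 as the 2 highest libraries, 2 of 8 (25.0%, against 14.3% of all genes). It had 6 genes below 0 and 2 above, a median of -0.26 with and -0.26 without those libraries, and 6 of 8 at an unadjusted p below 0.05 (18.9% of all genes), 4 of them below 0. Fbxw11, an F-box protein that recognises phosphorylated IkB, was at 118 ± 25.6 CPM (SD, n = 5) among controls and 84.6 ± 1.66 CPM (SD, n = 4) under diabetes, with all 4 diabetic libraries (83.2 to 86.2 CPM) below all controls (87.9 to 140.1 CPM). Its log2 fold change was -0.47 (SE 0.18, edgeR adjusted p = 0.132). Btrc, its paralog, was at 39.5 ± 2.42 and 33.6 ± 3.31 CPM (log2 fold change -0.23, edgeR adjusted p = 0.265), again with no overlap between groups. The same held for Cul1, Ube2d3 and Nedd8. The groups did not overlap for 8.44% of all tested genes. Cul1, the scaffold of the ligase, was at 256 ± 20.4 and 208 ± 9.91 CPM (log2 fold change -0.29, SE 0.11, edgeR adjusted p = 0.124). Ube2d3, a ubiquitin-conjugating enzyme, was at 525 ± 144 and 344 ± 19.6 CPM (-0.61, SE 0.21, edgeR adjusted p = 0.119). Nedd8, whose protein activates cullins, was the other way, at 45.9 ± 4.47 and 63.3 ± 14 CPM (0.46, SE 0.17, edgeR adjusted p = 0.126). By the DESeq2 Wald test Cul1 (adjusted p = 0.0393) and Ube2d3 (adjusted p = 0.0274) passed, the only 2 of the 86 genes to do so, where 4.88% of all genes passed that test.

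Negative regulators gave 8 of 18 genes above 0 and 10 below, with a median of -0.13 and 5 of 18 at an unadjusted p below 0.05 (18.9% of all genes), 4 below 0 and 1 above. Tnfaip3 (A20), a deubiquitinase induced by NF-kappaB, was at 65.8, 40.1, 706, 153 and 806 CPM in controls and 144, 171, 58.1 and 270.4 CPM in the diabetic group. Bcl3, another nuclear IkB protein, was at 7.46, 4.51, 52.5, 11.6 and 72.7 CPM in controls and 8.28 to 22.2 CPM in the diabetic group. Their log2 fold changes were -1.14 and -1.06 (edgeR adjusted p = 0.551 and 0.530) and turned to 0.90 and 0.85 without controls 4 and 6. Tnip1, a partner of A20, was at 41.1 ± 3.88 and 42.3 ± 6.15 CPM, and Cyld, a deubiquitinase, at 15.9 ± 2.71 and 13.1 ± 0.636 CPM. Pdlim2, a ligase for nuclear Rela, was at 21.6 ± 2.65 CPM (SD, n = 5) and 28.9 ± 1.19 CPM (SD, n = 4), with every diabetic library above every control (0.42, SE 0.15, edgeR adjusted p = 0.123). Groups without overlap were seen in 8.44% of all genes. Tax1bp1 and Itch, partners of A20, had log2 fold changes of -0.42 each (edgeR adjusted p = 0.126 and 0.155). The groups of Tax1bp1 did not overlap either, and those of Itch did.

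Known transcriptional targets were, like the family, mostly highest in controls 4 and 6. Of 26 tested genes 24 were below 0, with a median of -0.85, and 1 had an unadjusted p below 0.05 (18.9% of all genes). Controls 4 and 6 were the 2 highest libraries for 21 of the 26 (80.8%, against 14.3% of all genes). For those 21, leaving both out raises the fitted value by construction. Without those libraries 22 of 26 were above 0 (49.4% of all genes in that fit), with a median of 0.41, and 8 had an unadjusted p below 0.05 (14.9%). The list held 0.456%, 0.364%, 2.94%, 0.634% and 4.59% of the counts in the controls and 0.766%, 0.857%, 0.487% and 1.07% in the diabetic libraries. Il1b, the interleukin-1 beta gene, was at 85.8, 56.4, 2668, 288 and 6383 CPM in controls and 363, 334, 132 and 459.5 CPM in the diabetic group, and Il1a at 21.6, 37.0, 1683, 128 and 3216 CPM and at 31.2 to 245 CPM. Icam1, an adhesion molecule, was at 189, 160.2, 3127, 538 and 5537 CPM and at 219.7 to 623 CPM. Ccl3 and Ccl4, chemokine genes, had log2 fold changes of -0.92 and -1.06 that turned to 1.07 and 1.28 without controls 4 and 6. Ccl2 and Cxcl2, also chemokines, were at -0.53 and -0.96 and turned to 1.11 and 0.87. Sod2, a mitochondrial antioxidant enzyme, was at -1.07 and Cd40, a costimulatory receptor, at -0.31, and these turned to 0.31 and 0.09. Tlr2 (-0.67, edgeR adjusted p = 0.217), Vcam1 (-1.06, edgeR adjusted p = 0.273) and Cd80 (-0.26, edgeR adjusted p = 0.276) had the smallest p-values of the list and stayed below 0 without those libraries, at -0.18, -0.18 and -0.23. The groups did not overlap for Tlr2 and Cd80 (8.44% of all genes) and overlapped for Vcam1. Tnf had 2, 41, 4, 2 and 0 counts in the controls and 2, 0, 0 and 0 in the diabetic libraries, too few for the test.

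**Figure D4:**
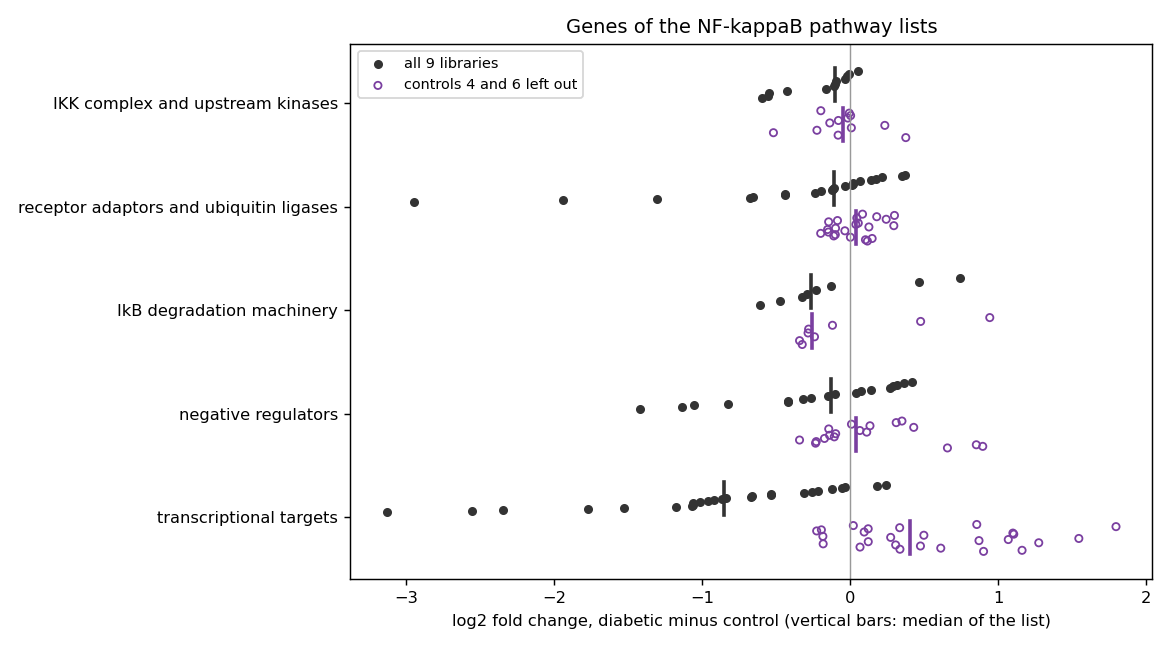
Log2 fold change of diabetic minus control for the 86 tested genes of 5 NF-kappaB pathway lists, each point a gene and each vertical bar the median of its list, from all 9 libraries (black) and with controls 4 and 6 left out (open purple). The target list moves from a median of -0.85 to 0.41, and the degradation list stays at -0.26.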

How the data were processed

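RNA of 5 control and 4 diabetic libraries was preamplified with a SmartSeq kit and made into Nextera XT libraries, per the labels' protocols. The submitters' processing notes name bcl2fastq 2.18.0.12, TopHat2 2.0.14, StringTie 1.2.4, edgeR and the build Rnor_6.0. The main table holds raw counts per gene symbol as the authors deposited them. Which program counted, and with what strand setting, is not given in the sources used here, so reads of a gene and of overlapping or antisense transcripts cannot be told apart. A second table that the authors deposited has, per gene, their p-value (raw and adjusted) and log2 fold change. The 9 assemblies hold TPM per transcript, per the file headers; of these, a symbol's assembled gene was summed.

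Genes were kept with filterByExpr (minimum count 10, minimum total 15), leaving 11748 of 17822 with any count; all 10 members passed. Counts were fitted with edgeR 4.0.16 in R 4.3.3 (TMM factors, robust quasi-likelihood test, no covariate, two-sided) and adjusted by Benjamini-Hochberg. Each SE was taken from the log2 fold change and the two-sided normal quantile for that p. The procedure was tested on simulated data with the same dispersion for every gene and no outlying library. That setting does not show how the test performs on genes spread as these are. Alternatives were DESeq2 1.42.0, limma-voom 3.58.1, other factors, no filter, a replicate block, the immediate-early share as covariate and libraries left out. No 2 libraries agreed within sampling noise (chi-square of at least 11.7 per degree of freedom). Replicate numbers 1, 4 and 5 occur in both groups, but the deviations of same-numbered libraries correlated at 0.196, -0.136 and 0.0171, so they were not taken as pairs. Named pathway genes were 30 set genes and the 3 with the smallest p per list. Members and lists were chosen with earlier results of these data known. Intervals cover the spread between libraries only. A gene among those most like a member is not reported here.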

Additional observations from a re-analysis of the deposited data

Results flagged for a closer look

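A library lay far from the others of its group (Dixon's test at the 95% level) in 8 of the 104 gene and group pairs examined, where chance alone gives about 1 in 20. The genes resemble each other, so these pairs are not independent. The test looks for 1 value apart, so controls 4 and 6, both high in the same genes, can hide each other from it. In 6 of the 8, diabetic 5 was the highest diabetic library. It had 72.2 CPM of Rel (29.1 to 32.9 in the other 3), 62.1 CPM of Nfkb2 (35.9 to 39.6), 258 CPM of Rela (206 to 214), 40.3 CPM of Birc3 (14.1 to 17.9), 146 CPM of Myd88 (125 to 128) and 14.1 CPM of Cyld (12.8 to 12.9). Btrc was lowest in diabetic 4, at 28.7 CPM (34.6 to 35.6 in the others), and Malt1 was highest in control 6, at 82.7 CPM (43.3 to 51.4 in the others). Diabetic 5 also had the highest immediate-early share of its group (1.99%); the part of that in these values was not tested.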

How the results depend on the processing

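None of the 10 genes passed the adjusted threshold in any alternative other than the immediate-early share as covariate, which called 9; the cause was not tested. With each library left out in turn the count of members stayed at 0 and every member kept its sign, Nfkbia from 0.01 (without control 3) to 0.49 (without control 6). Without control 6 the other members moved towards 0 by over 1.5 times: Nfkb1 to -0.29, Nfkb2 to -0.48, Rel to -1.43, Rela to -0.25, Relb to -0.23, Nfkbib to -0.42, Nfkbid to -1.43, Nfkbie to -0.20 and Nfkbiz to -0.70. Nfkbia moved by over 1.5 times without each library but diabetic 1. Limma-voom and the replicate block gave smaller values for Rel (-1.0 and -0.57), Nfkbid (-0.50 and -0.47) and Nfkbiz (-0.42 and -0.32). Same-numbered libraries did not deviate together, and the replicate block called 0 genes in all. The count over all genes was 8, and 31 with upper-quartile factors, 29 without factors, 42 without the filter, 583 by DESeq2, 4 by limma-voom, 1573 with the covariate, 0 with controls 4 and 6 left out, 0 with both, and 0 to 75 with 1 library left out (75 without control 1). Of the 86 pathway genes DESeq2 called 2 (4.88% of all genes) and the covariate 32, 28 lower and 4 higher (13.4% of all genes). With controls 4 and 6 also left out the covariate called 0, in a fit that could hardly tell group from share. With controls 4 and 6 left out, members and pathway genes named in the report that turned sign were Nfkb2 0.33, Rel 0.51, Rela 0.042, Relb 0.010, Nfkbib 0.39, Nfkbid 0.79, Nfkbie 0.25, Nfkbiz 0.93, Bcl3 0.85, Birc3 0.12, Ccl2 1.11, Ccl3 1.07, Ccl4 1.28, Cd40 0.095, Cxcl2 0.87, Icam1 0.34, Ikbke 0.0082, Il1a 0.90, Il1b 1.16, Map3k14 0.23, Map3k8 0.38, Sod2 0.31, Tnfaip3 0.90, Traf1 0.10, Traf3 0.13 and Traf6 0.0019. With the covariate Nfkbia turned to -0.11, Tbk1 to 0.0069 and Tnip1 to -0.0095. With the covariate and without controls 4 and 6, an alternative chosen after seeing the data, Nfkb2 turned to 0.095, Relb to 0.26, Nfkbia to -0.48, Ccl2 to 0.23, Cd40 to 0.079, Ikbkg to 0.0903, Myd88 to 0.060 and Tbk1 to 0.26. Limma-voom turned Ccl2 to 0.044 and Cxcl2 to 0.013, and the replicate block turned Ccl2 to 0.058, Ccl4 to 0.086 and Map3k14 to 0.031. Upper-quartile factors turned Ikbkb to 0.045 and Tbk1 to 0.068. Without factors Ikbkb was at 0.083, Ikbkg at 0.013, Irak4 at 0.00359, Map3k14 at 0.035, Tbk1 at 0.11 and Traf3 at 0.026. Leaving out 1 library gave ranges that crossed 0 for Ccl2 (-0.78 to 0.16), Ikbkb (-0.091 to 0.0061), Ikbke (-0.70 to 0.063), Ikbkg (-0.19 to 0.0014), Map3k14 (-0.24 to 0.070), Tbk1 (-0.056 to 0.055), Tnip1 (-0.039 to 0.10) and Traf3 (-0.28 to 0.016). Low depth limits Tnf and, in control 3, Nfkbid (66 counts).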
